A study of Mus musculus with 10 samples.

Results

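Brown fat from 10 mice was divided by how much skeletal muscle RNA its sample carried. The dividing line was a log2 signal of 11 for Acta1, skeletal alpha-actin, which a single probe set reads. Of the 10 arrays, 7 were at or above that level and are called muscle-rich, and 3 were below it and are called muscle-poor. Each array held brown adipose tissue of 1 untreated mouse, about 1 year old, from littermates kept on the 129 strain background. The wild-type (WT) arrays numbered 5, and another 5 carried the label of a knockout (KO) of Sirt3, a mitochondrial deacetylase. The muscle-rich arrays were WT 1, WT 2, WT 3, WT 4, KO 2, KO 4 and KO 5, that is 4 WT and 3 KO mice. The muscle-poor arrays were WT 5, KO 1 and KO 3. The labels do not give the part of Sirt3 that was removed, nor whether the knockout reached every tissue.

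Skeletal muscle builds its contractile fibres from myosin, actin, troponin and tropomyosin, and fast and slow fibres use different genes for most of these. Creatine kinase, parvalbumin and the calcium pump Atp2a1 serve rapid contraction and relaxation, mainly in fast fibres. Brown adipocytes burn fat for heat through Ucp1 and share with muscle an origin in Myf5-expressing precursors. The interscapular brown fat depot lies directly on muscle of the neck and back, though the labels do not say which brown fat depot was taken.

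All differences between muscle-rich and muscle-poor arrays are given as muscle-rich minus muscle-poor in log2 units, with the standard error (SE) of a limma fit that also held genotype. A gene is called where its Benjamini-Hochberg adjusted p over all genes was below 0.05. Because the arrays were grouped by a measured transcript, these calls describe which genes followed Acta1 beyond the spread within groups, and they are no test of a condition. In bulk tissue, more muscle cells and more RNA per muscle cell cannot be told apart. Acta1 itself, which set the groups, is left out of every count of genes that differed between them.

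The Acta1 signal was 13.59 in WT 1, 13.86 in WT 2, 13.79 in WT 3, 12.49 in WT 4, 13.68 in KO 4 and 13.12 in KO 5, and KO 2 was the highest of all. In the muscle-poor arrays it was 10.36 in WT 5, 6.45 in KO 1 and 6.21 in KO 3. The arrays nearest to the dividing line were thus WT 4 above it and WT 5 below it.

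The promoters of Acta1 and of 3 strongly differing fast-fibre genes are shown as examples. A slow-fibre gene, Myh7, is set beside them. Each sequence holds the 250 bases before an annotated transcription start in RefSeq, assembly GRCm38.p6, on the strand of the gene. Capitals mark matches, on either strand, to CAGCTG, a core of the E-box bound by MyoD family factors, to the CArG box of serum response factor, and to the MEF2 site.
Acta1, chr8:123894776-123895025, minus strand: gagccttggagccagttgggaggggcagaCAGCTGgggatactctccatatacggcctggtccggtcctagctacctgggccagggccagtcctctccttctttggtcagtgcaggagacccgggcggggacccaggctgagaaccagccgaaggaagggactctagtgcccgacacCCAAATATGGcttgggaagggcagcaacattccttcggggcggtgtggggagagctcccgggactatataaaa
Ckm, chr7:19410844-19411093, plus strand: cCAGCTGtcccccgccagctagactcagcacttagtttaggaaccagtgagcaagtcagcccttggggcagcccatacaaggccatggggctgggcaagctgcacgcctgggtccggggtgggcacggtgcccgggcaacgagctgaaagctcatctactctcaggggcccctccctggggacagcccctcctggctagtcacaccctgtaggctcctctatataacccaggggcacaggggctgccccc
Myh4, chr11:67237562-67237811, plus strand: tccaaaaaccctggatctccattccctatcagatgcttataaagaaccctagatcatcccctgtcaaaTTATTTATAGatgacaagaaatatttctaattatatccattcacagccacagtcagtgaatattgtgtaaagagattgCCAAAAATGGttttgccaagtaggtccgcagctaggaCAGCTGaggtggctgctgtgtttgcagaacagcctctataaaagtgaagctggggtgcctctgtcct
Myh1, chr11:67199852-67200101, plus strand: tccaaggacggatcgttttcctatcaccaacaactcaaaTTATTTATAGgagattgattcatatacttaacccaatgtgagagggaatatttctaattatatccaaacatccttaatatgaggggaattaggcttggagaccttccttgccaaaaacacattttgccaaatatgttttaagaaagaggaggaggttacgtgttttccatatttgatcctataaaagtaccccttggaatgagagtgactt
Myh7, chr14:54994627-54994876, minus strand: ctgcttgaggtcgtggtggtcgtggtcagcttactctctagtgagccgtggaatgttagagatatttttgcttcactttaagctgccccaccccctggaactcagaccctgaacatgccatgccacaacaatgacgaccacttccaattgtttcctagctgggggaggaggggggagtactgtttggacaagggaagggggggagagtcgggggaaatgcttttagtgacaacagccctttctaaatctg

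The CAGCTG match began 221 bases before the start in Acta1, 249 in Ckm and 67 in Myh4. A CArG box began 73 bases before the start in Acta1 and 104 in Myh4. A MEF2 site began 182 bases before the start in Myh4 and 211 in Myh1. The Myh7 window held no match, and neither did the window of a further annotated Myh7 start, which is not printed. The window of the fast-fibre gene Tnnc2, which differed by 5.91, held no match either and is not printed. Matches thus did not mark every strongly differing fast-fibre gene. Among 32851 promoters of the same length, 13.0% held CAGCTG, 1.47% a CArG box and 2.92% a MEF2 site. Among the 18109 of them that belong to measured genes, these shares were 12.8%, 1.23% and 1.94%. Of the 83 genes called higher in muscle-rich arrays, 63 had promoter windows. Among their 75 windows the shares were 37.3%, 6.67% and 13.3%. These matches are descriptions of sequence, and no binding was measured.

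Myh4 and Ckm, the other muscle markers, followed Acta1. Myh4, the myosin heavy chain of the fastest fibres, had a median signal of 12.11 in the muscle-rich arrays, with 10.41 as the lowest and 12.39 as the highest. It read 8.28 in WT 5, 5.29 in KO 1 and 4.53 in KO 3. The muscle-rich range lay wholly above the muscle-poor range, and the difference was 5.57 ± 0.66 (SE).

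Ckm, muscle creatine kinase, which regenerates ATP from phosphocreatine, ran from 11.01 through a median of 12.40 to 12.73 in the muscle-rich arrays. The muscle-poor arrays read 8.62 in WT 5, 6.66 in KO 1 and 6.14 in KO 3. Its difference was 4.87 ± 0.51, or 29.2-fold, and 2.96 as the mean of its probe sets, and again the groups did not overlap. Of the muscle-rich arrays, WT 4 was lowest for both genes and KO 5 next lowest, and of the muscle-poor arrays WT 5 was highest.

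**Figure D1:**
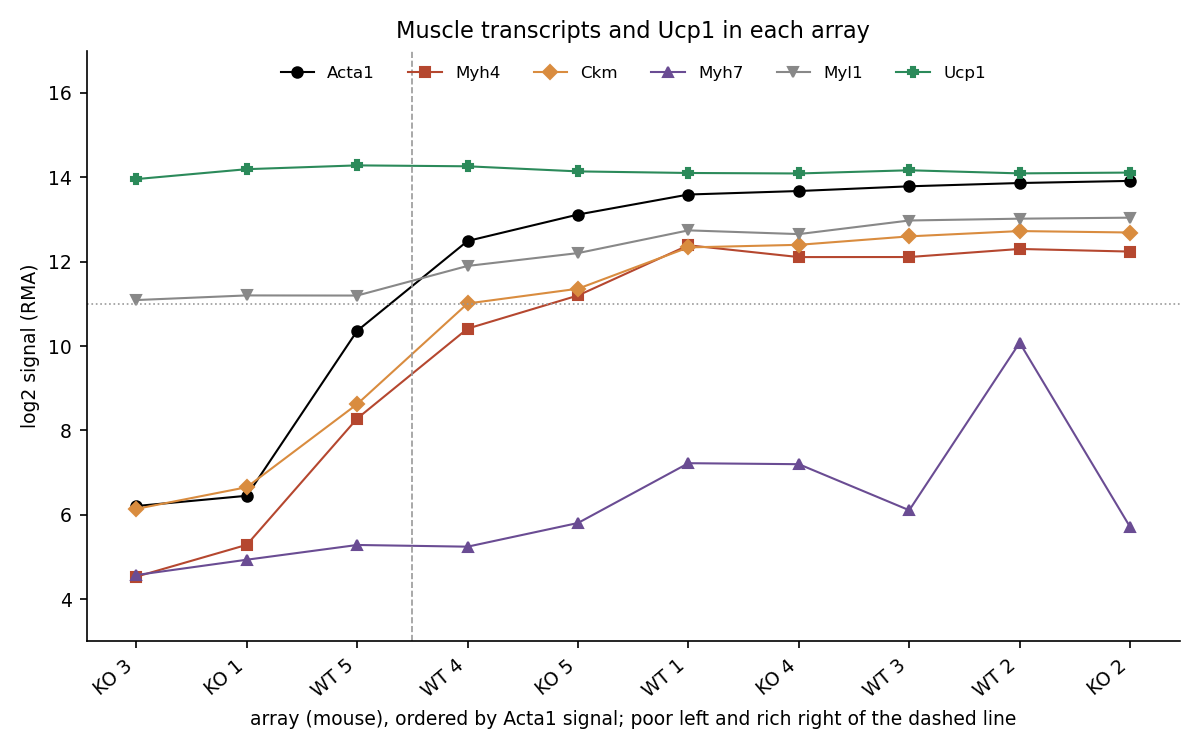
The log2 signal (y axis) of Acta1, Myh4, Ckm, Myh7, Myl1 and Ucp1 in each of the 10 arrays (x axis), ordered by Acta1, where each point is 1 array and the lines only join points of a gene. The dotted line marks the level of 11 that divides the arrays, Myh4 and Ckm climb with Acta1, Myh7 peaks in WT 2 at 10.08, Myl1 is at 11.09 or more everywhere, and Ucp1 is nearly level at about 14.

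Over all 18192 genes, 83 were called higher (0.456%) and 4 lower (0.022%) in muscle-rich arrays. The median difference of all genes was -0.02, with 7654 genes higher and 10529 lower. A difference of at least 1 log2 unit was seen in 144 genes in the higher direction (0.792%) and in 4 in the lower direction (0.022%). The groups did not overlap for 337 genes that were higher (1.85%) and 323 that were lower (1.78%), and all 83 genes called higher were among the former. Of the 83, 51 belonged to 11 lists of muscle genes, of which 171 members were measured, and 32 lay outside them. Without KO 1 the count called higher was 34, and without WT 4 it was 192, so single arrays moved the count by more than 1.5 times.

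**Figure D2:**
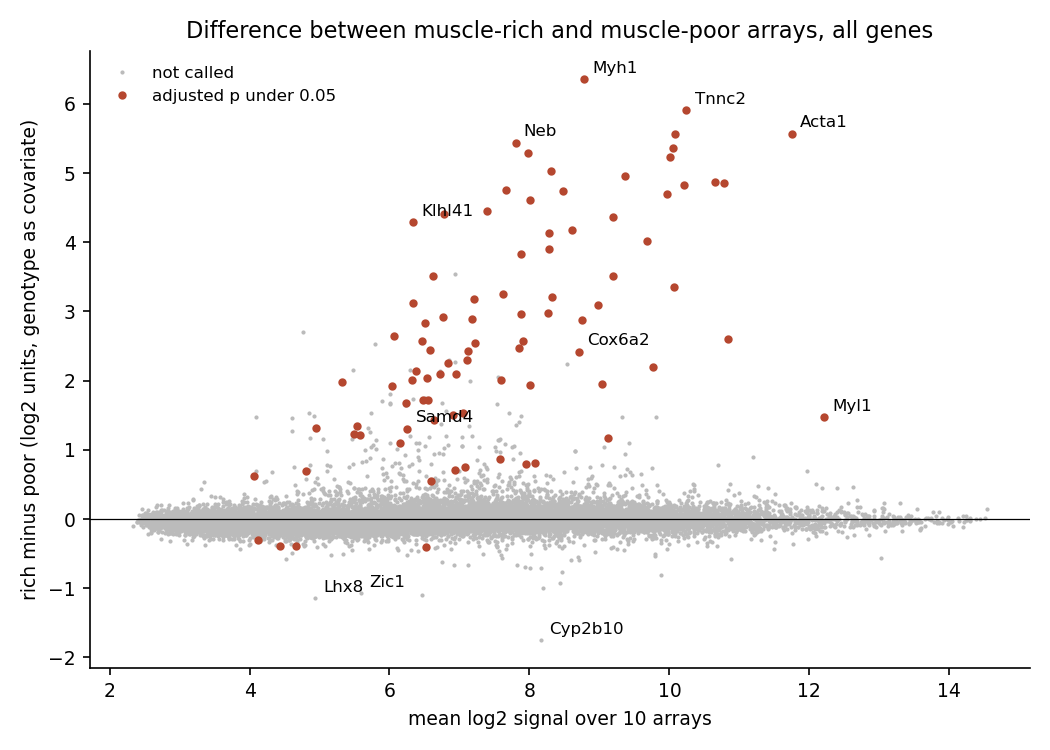
For each gene, the difference between muscle-rich and muscle-poor arrays in log2 units (y axis) against its mean log2 signal over 10 arrays (x axis), where red points are called and grey points are not. The called genes spread upward from 0.55 to 6.36, while the 4 genes called lower lie between -0.40 and -0.30.

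Genes of the fast-fibre contractile apparatus differed most. Of 14 measured besides Acta1, 13 were called higher and in all 14 the groups did not overlap, with a median difference of 4.72 against -0.02 for all genes. Myh1, the heavy chain of fast IIx fibres, ran from 9.02 through a median of 11.25 to 11.46 in muscle-rich arrays, and it read 6.23 in WT 5, 3.35 in KO 1 and 2.85 in KO 3. Its difference of 6.36 ± 0.66 was the largest in the fit, though signals as low as those of KO 1 and KO 3 carry no detection call, so its true size is not known. Its brighter probe sets carry suffixes for probes that can read several transcripts, and whether related myosins are counted with it was not tested. On its remaining probe set, with a mean signal of 4.24, the difference was 0.11.

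The fast troponins, which make contraction depend on calcium, differed by similar amounts. Tnnc2, the fast calcium-binding subunit, ran from 10.81 through 12.34 to 12.71 in muscle-rich arrays and read 8.57 in WT 5, 4.98 in KO 1 and 4.23 in KO 3, a difference of 5.91 ± 0.73. The tropomyosin-binding subunit Tnnt3 differed by 5.37 ± 0.60 and the inhibitory subunit Tnni2 by 5.23 ± 0.61, or 2.86 as the mean of its probe sets. For each of these troponins WT 5 lay between the muscle-rich arrays and KO 1 and KO 3.

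Other fast-fibre genes differed less. Myh2, the heavy chain of IIa fibres, differed by 4.75 ± 0.56, and its muscle-rich range was wide, from 7.80 in WT 4 to 10.68 in WT 3. Actn3, alpha-actinin of fast Z discs, differed by 4.37 ± 0.46. Myl1, a fast alkali light chain, had a high signal in every array. It read 11.20 in WT 5, 11.20 in KO 1 and 11.09 in KO 3, against 11.90 to 13.04 in the muscle-rich arrays, so its difference was 1.48 ± 0.24. Mylk2, the kinase of skeletal myosin light chains, was the member not called, at 1.03 ± 0.28.

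The Z disc and giant filament proteins that hold the sarcomere in register differed next most. Of 22 measured, 11 were called higher, the groups did not overlap in 15, and the median difference was 2.39. Neb, nebulin, which runs along the thin filament, ran from 7.85 through 9.84 to 10.07 in muscle-rich arrays and read 5.00 in WT 5, 3.18 in KO 1 and 3.59 in KO 3. Its difference was 5.44 ± 0.53. Myot, a Z disc protein, differed by 5.29 ± 0.61. Ttn, the spring protein titin, differed by 4.95 ± 0.55, but by 1.02 when probe sets that can read several transcripts were left out.

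Other genes of this group were not called. Des, desmin, the intermediate filament of all muscle, differed by 0.93 ± 0.17 and was not called, though its muscle-rich range from 9.11 to 9.98 lay above the muscle-poor range from 8.55 to 8.85. The mean of its probe sets differed by 0.47. Cryab, a small chaperone of the Z disc, differed by 1.47 ± 0.51 with overlapping ranges, and by -0.10 on its dim single-transcript probe set. Fhl3 differed by -0.05 ± 0.06. Synpo2l differed by 0.09 ± 0.14, but by 0.71 as the mean of its probe sets.

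Of 22 genes that release, bind or pump calcium, 8 were called higher, 16 had no overlap and the median difference was 1.07. Atp2a1, the fast-fibre calcium pump, ran from 10.99 through 12.65 to 12.80 in muscle-rich arrays and read 8.95 in WT 5, 6.54 in KO 1 and 6.29 in KO 3. Its difference was 4.86 ± 0.55, or 29.0-fold. Pvalb, parvalbumin, which buffers calcium in fast fibres, differed by 4.83 ± 0.53.

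The release machinery followed with smaller steps. Ryr1, the release channel of skeletal muscle, differed by 4.45 ± 0.55, and Casq1, which stores calcium, by 4.14 ± 0.44. Cacna1s, the voltage sensor coupled to Ryr1, differed by 2.09 ± 0.35. Atp2a2, the slow-fibre and general calcium pump, differed by -0.11 ± 0.07, and Pln, its inhibitor, by 0.00 ± 0.06. Sln, another small pump inhibitor, was low throughout, with 4.22 to 6.25 in muscle-rich and 3.84 to 4.20 in muscle-poor arrays.

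Genes for muscle fuel use differed unevenly. Of 25 measured, 11 were called higher, 14 had no overlap, and the median difference was 0.78. Ckmt2, mitochondrial creatine kinase of muscle, differed by 4.75 ± 0.50. Pygm, the glycogen phosphorylase of muscle, differed by 4.18 ± 0.46, and Mb, the oxygen carrier myoglobin, by 4.02 ± 0.57, or 2.02 as the mean of its probe sets. Eno3, the muscle enolase, differed by 3.36 ± 0.37. Pgam2, the muscle phosphoglycerate mutase, differed by 2.97 ± 0.36.

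Several genes on the same list that fat also uses had overlapping ranges. Aldoa, aldolase, read 13.49 to 13.89 in muscle-rich and 13.65 to 13.82 in muscle-poor arrays. Car3, a carbonic anhydrase abundant in fat and slow muscle, read 13.85 to 14.21 and 14.01 to 14.15, and the mean of its probe sets differed by -0.46. Slc2a4, the insulin-responsive glucose transporter, differed by -0.15 ± 0.10, and Gpd1, which links glycolysis to glycerol phosphate, by -0.13 ± 0.08. In Slc2a4 and Gpd1 the ranges overlapped too.

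Muscle ubiquitin ligases and Kelch proteins, which control protein turnover in fibres, held 6 called of 13, and in 9 the muscle-rich range lay above the other. Klhl41, a Kelch protein of the sarcomere, differed by 4.29 ± 0.51, and Asb5 by 3.51 ± 0.41. Trim63, known as MuRF1, differed by 2.64 ± 0.38. Fbxo32, known as atrogin-1, differed by 0.26 ± 0.16 with overlapping ranges, and by 0.52 as the mean of its probe sets. Trim72 lay the other way, with 4.35 to 4.58 in muscle-rich and 4.60 to 4.80 in muscle-poor arrays, and was not called.

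**Figure D3:**
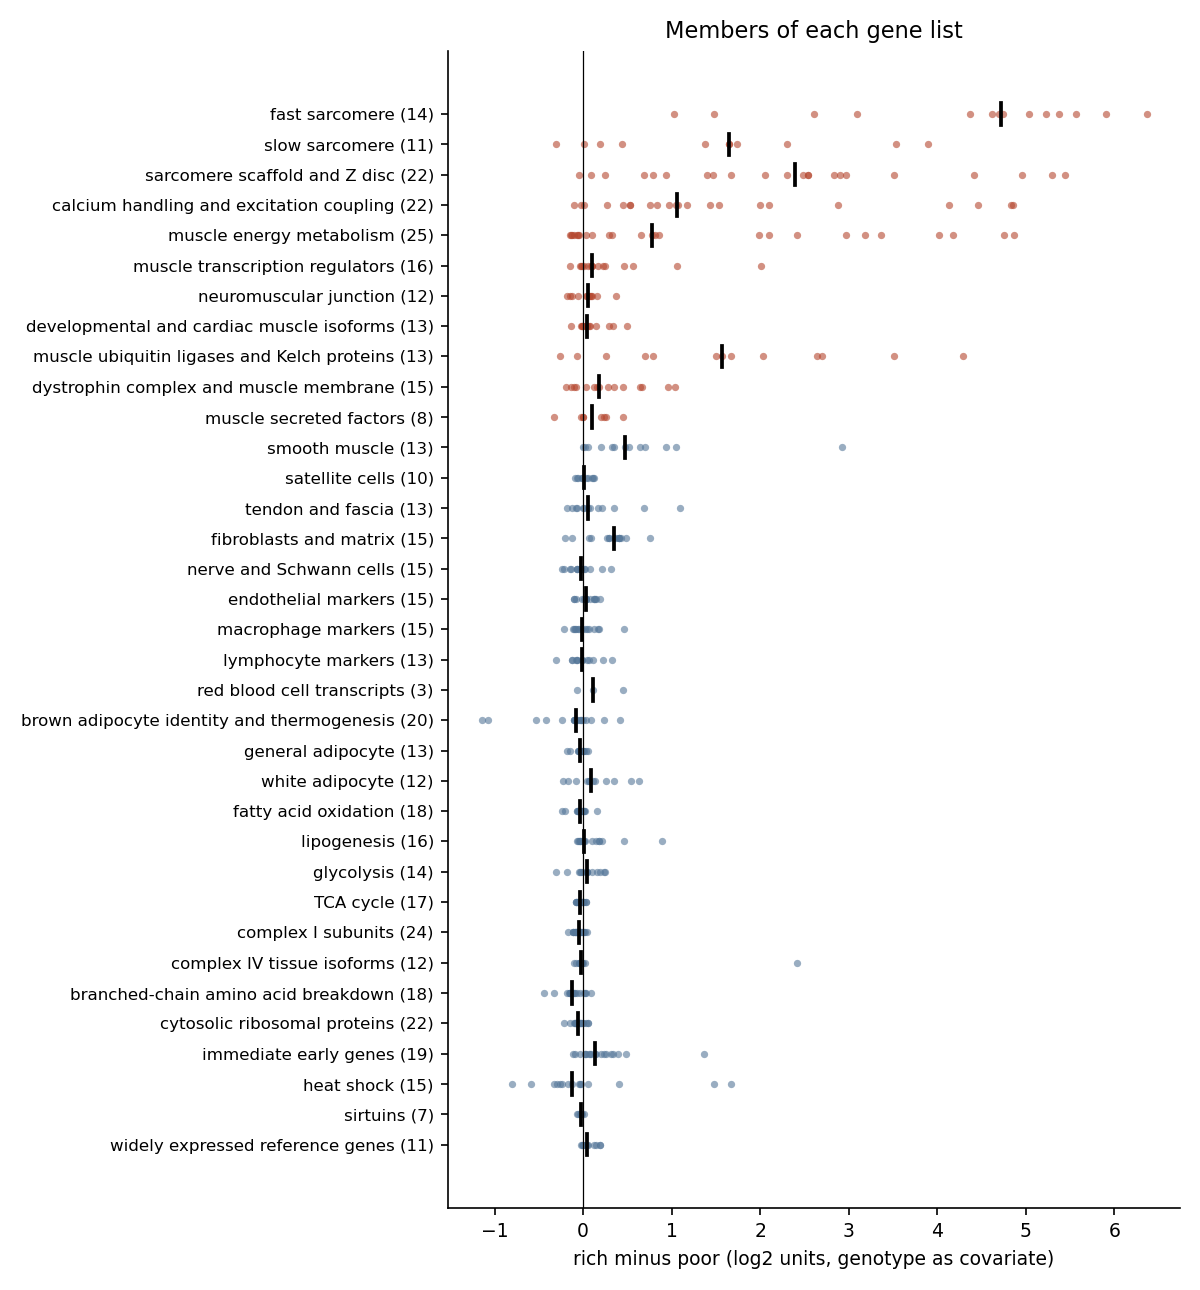
The difference between muscle-rich and muscle-poor arrays (x axis, log2 units) for each measured member of 35 gene lists (y axis, with the number of members besides Acta1), where each point is a gene and the black bar is the list median. Lists of muscle genes are red and others blue, the fast sarcomere list has a median of 4.72, and most lists of other cell types and of metabolism have medians near 0.

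Of 16 transcription regulators of muscle, 1 was called higher, Myf6, and the median difference was 0.10. Myf6, the MyoD family factor that stays on in mature fibres, ran from 5.62 through 7.10 to 7.59 in muscle-rich arrays and read 5.35 in WT 5, 4.67 in KO 1 and 4.95 in KO 3, a difference of 2.01 ± 0.34. Mef2c, a MADS-box factor of muscle genes, differed by 1.06 ± 0.31 with overlapping ranges, and all 5 of its probe sets were higher. Vgll2, a cofactor of muscle transcription, differed by 0.56 ± 0.18 without overlap. Neither was called. The other MyoD family members had low signals that overlapped. Myod1 read 5.06 to 5.26 and 4.98 to 5.10, Myog 4.72 to 4.91 and 4.59 to 4.82, and Myf5 2.52 to 2.74 and 2.48 to 2.61.

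The list of the neuromuscular junction held 0 called of 12, with a median difference of 0.05, and no member had groups that did not overlap. Its lowest member, at -0.185, was Ufsp1, a protease that is not specific to the junction. Chrna1, a subunit of the acetylcholine receptor, differed by 0.15 ± 0.13 and Musk, the kinase that clusters the receptor, by 0.10 ± 0.10. Developmental and cardiac isoforms held 0 called of 13, with a median of 0.05, and 2 members had no overlap. Actc1, cardiac actin, read 6.51 to 7.46 in muscle-rich and 6.18 to 6.35 in muscle-poor arrays, and Bves, a membrane protein of striated muscle, read 6.11 to 6.58 and 5.98 to 6.06. The embryonic myosin Myh3 read 3.68 to 4.41 in muscle-rich and 3.71 to 3.93 in muscle-poor arrays, and the cardiac myosin Myh6 read 3.44 to 3.78 and 3.36 to 3.86.

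The dystrophin complex held 0 called of 15, with a median difference of 0.18. Dmd, dystrophin, differed by 0.18 ± 0.16 and Sgca, alpha-sarcoglycan, by 0.64 ± 0.18, while Bin1, which shapes the T tubules, differed by 0.96 ± 0.21 with no overlap, but by -0.10 without probe sets shared by several transcripts. Muscle secreted factors held 0 called of 8, with a median of 0.10. Fndc5, the precursor of irisin, differed by 0.20 ± 0.14. The markers of satellite cells, the stem cells of muscle, held 0 called of 10 and a median of 0.01, with Pax7 at 3.90 to 4.28 in muscle-rich and 4.02 to 4.17 in muscle-poor arrays.

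The muscle-rich arrays were not alike in slow-fibre genes. Of 11 slow-fibre genes, 1 was called higher, Mybpc1, at 3.90 ± 0.52, and 6 had no overlap, with a median difference of 1.64. Myh7, the slow myosin heavy chain, read 10.08 in WT 2, 7.22 in WT 1, 7.20 in KO 4, 6.11 in WT 3, 5.81 in KO 5, 5.71 in KO 2 and 5.25 in WT 4. In the muscle-poor arrays it read 5.29 in WT 5, 4.94 in KO 1 and 4.57 in KO 3. WT 2 stood far above every other array, and WT 4 was below WT 5.

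WT 2 was the highest array for 8 of the 11 slow-fibre genes. It led for Mybpc1 by 0.46, while Tpm3 was highest in KO 5, Myh7b in WT 3 and Myl6b in KO 3. The Tpm3 probe set used here differed by 0.12 between group means, and its dimmer probe sets by 0.10, 0.01, 1.68 and 1.16. The other 7 genes, Myh7, Tnnt1, Tnni1, Tnnc1, Myl2, Myl3 and Myoz2, were set apart as classical slow-fibre isoforms with their values known. Tnnc1, the slow troponin C, read 10.15 in WT 2 and 7.52 in the next array, KO 4. Myl2, the slow regulatory light chain, read 10.99 in WT 2 and 8.30 in WT 3, and Tnni1, the slow inhibitory troponin, read 9.73 in WT 2 and 7.19 in KO 4. Over these 7 genes, the lead of WT 2 over the next array ran from 1.26 for Myoz2 to 2.86 for Myh7.

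In 7 matching fast-fibre genes the top arrays were nearly equal. The gap between the highest array and the next was 0.09 for Myh4, 0.10 for Tnnc2 and 0.14 for Myh2, the largest of the 7. The mean over the 7 fast genes was 11.89 in WT 2 and 11.86 in KO 2, while the mean over the 7 slow genes was 9.84 in WT 2 and 6.61 in KO 2. The fast mean of the muscle-poor arrays was 7.58 in WT 5, 5.06 in KO 1 and 4.57 in KO 3, and their slow mean was 5.25, 5.32 and 5.20. WT 5 thus stood above KO 1 and KO 3 in the fast-fibre mean, while the slow-fibre means of these arrays were close. Single slow-fibre genes went different ways. Myl2 read 3.62 in WT 5, below 4.82 in KO 1 and 4.88 in KO 3. Myh7, Tnnc1 and Myoz2 were higher in WT 5 than in KO 1 and KO 3, and Tnni1 and Myl3 in WT 5 lay between those arrays.

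**Figure D4:**
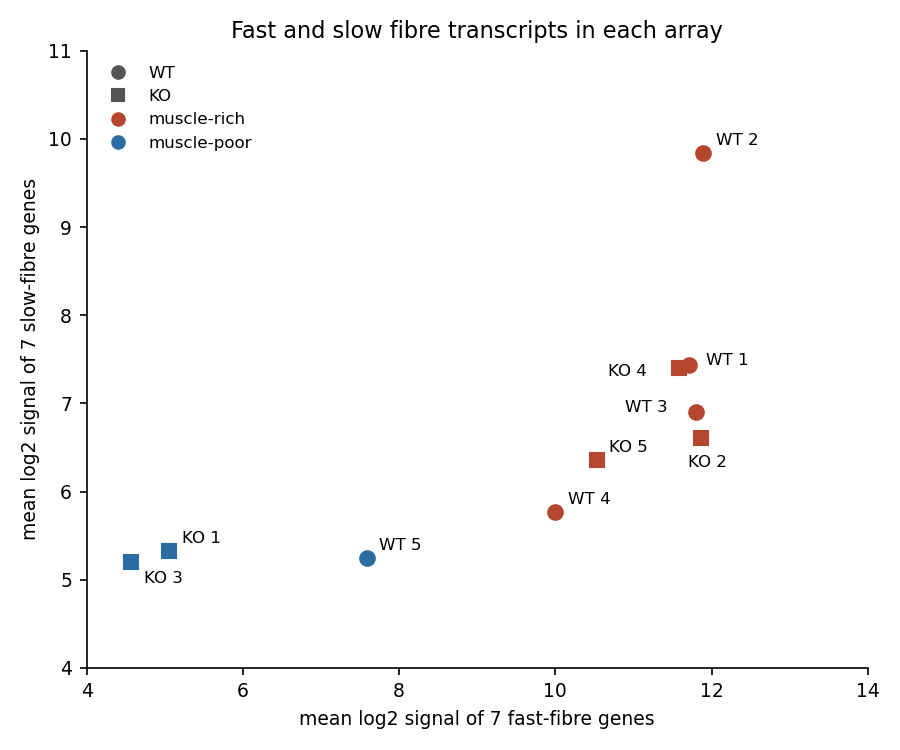
Mean log2 signal of 7 slow-fibre genes (y axis) against that of 7 fast-fibre genes (x axis), where each point is 1 array, circles are WT, squares are KO, red is muscle-rich and blue is muscle-poor. WT 2 and KO 2 lie at nearly the same fast-fibre mean, 11.89 and 11.86, but at slow-fibre means of 9.84 and 6.61.

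The division ran through a gradient rather than between 2 even groups. Among 57 genes called higher with a difference of at least 2, WT 4 was the lowest muscle-rich array in 51 and KO 5 in 6. WT 5 was the highest muscle-poor array in 53. Relative to the mean of KO 1 and KO 3, the median signal over these genes was 0.89 higher in WT 5, 2.48 in WT 4, 2.94 in KO 5, and between 3.80 and 4.25 in the other muscle-rich arrays. These genes were chosen for the difference itself, so the ordering of arrays is a description.

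The genes described next were called higher and stand in no muscle list. Apobec2, a muscle member of the deaminase family, ran from 7.64 through 9.28 to 9.93 in muscle-rich arrays and read 5.89 in WT 5, 5.16 in KO 1 and 4.29 in KO 3, a difference of 3.84 ± 0.48. Its second, dimmer probe set differed by 0.01, and the mean of both by 1.92. Rtn2, a reticulon of the endoplasmic reticulum, differed by 3.26 ± 0.41, and Cmya5, a sarcomere-associated protein, by 3.20 ± 0.45. Mlf1 differed by 3.13 ± 0.35 and Mylk4, a myosin light chain kinase, by 2.93 ± 0.41.

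Other genes of this set have varied roles. Rpl3l, a ribosomal protein of striated muscle, differed by 2.26 ± 0.37, and Eef1a2, the elongation factor of muscle and neurons, by 1.95 ± 0.31. Tpm2, beta-tropomyosin, differed by 2.20 ± 0.34, and by 3.62 without shared probe sets. Slc25a12, the aspartate-glutamate carrier of mitochondria, differed by 2.42 ± 0.32, while its 2 dimmer probe sets differed by 0.54 and -0.20, and the mean of all by 0.94. Atp5g1, which encodes subunit c of ATP synthase, differed by 1.94 ± 0.29, but by 0.04 on its single-transcript probe set, which had a mean signal of 3.04. Cd24a, a cell surface glycoprotein, differed by 2.57 ± 0.29, with all 3 of its probe sets between 2.50 and 2.74 as differences of group means.

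Samd4, an RNA-binding repressor of translation, did not follow the gradient, and is singled out after its values were seen. It read 6.55 in WT 1, 6.76 in WT 2, 6.74 in WT 3, 6.44 in WT 4, 6.54 in KO 2, 6.74 in KO 4 and 6.73 in KO 5. In the muscle-poor arrays it read 5.38 in WT 5, 5.32 in KO 1 and 5.32 in KO 3. Each group was tight, WT 5 was level with KO 1 and KO 3, and the difference of 1.31 ± 0.08 had the smallest p of all genes. The 3 other Samd4 probe sets, of lower mean signal, differed by 0.09, 0.33 and -0.12.

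The 4 genes called lower differed by 0.40 log2 units or less, and the calls were not stable. Bmpr1b, a receptor for bone morphogenetic proteins, differed by -0.40 ± 0.07, and its other probe sets by -0.06 and -0.02. Cryba1, a beta-crystallin, differed by -0.30 ± 0.05. The calls of Bmpr1b and Cryba1 were each lost in 16 of 21 other settings, and none of the 4 calls remained in KO arrays alone or without KO 1, KO 2, KO 3 or KO 4. The remaining pair are RIKEN sequences without an assigned function, 2810032G03Rik at -0.39 ± 0.07 and 4930415O20Rik at -0.40 ± 0.07. The 4 genes lower by at least 1 log2 unit were others, none of them called: Cyp2b10 at -1.75 ± 0.78, Lhx8 at -1.15 ± 0.22, Mfsd2a at -1.10 ± 1.29 and Zic1 at -1.07 ± 0.20.

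Markers of the brown adipocyte overlapped between the groups, apart from a few regulators. Of 20 genes for brown fat identity and heat production, 0 were called in either direction, and the median difference was -0.08. Ucp1, the uncoupling protein, read 14.09 to 14.26 in muscle-rich arrays, and 14.28 in WT 5, 14.19 in KO 1 and 13.96 in KO 3. Cidea, a lipid droplet protein typical of brown fat, read 14.19 to 14.23, and 14.15, 14.19 and 14.17 in the same order. Prdm16, which sets brown fat fate, differed by -0.06 ± 0.16. Both groups thus carried high signals of these defining brown fat genes, and the ranges overlapped.

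Zic1 and Lhx8, which mark classical brown fat, were the exceptions in the list. Zic1 ran from 4.43 through 5.23 to 5.88 in muscle-rich arrays and read 6.40 in WT 5, 6.26 in KO 1 and 6.12 in KO 3. Lhx8 ran from 4.09 through 4.47 to 5.44 and read 5.57 in WT 5, 5.91 in KO 1 and 5.52 in KO 3. For both genes every muscle-poor array lay above every muscle-rich array, yet neither was called at an adjusted p below 0.05 in limma. The second Zic1 probe set differed in the same direction, by -0.56 between group means. Pdk4, which restrains glucose oxidation, was the one member with a muscle-rich range above the other, at 13.19 to 13.62 against 13.14 to 13.15.

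**Figure D5:**
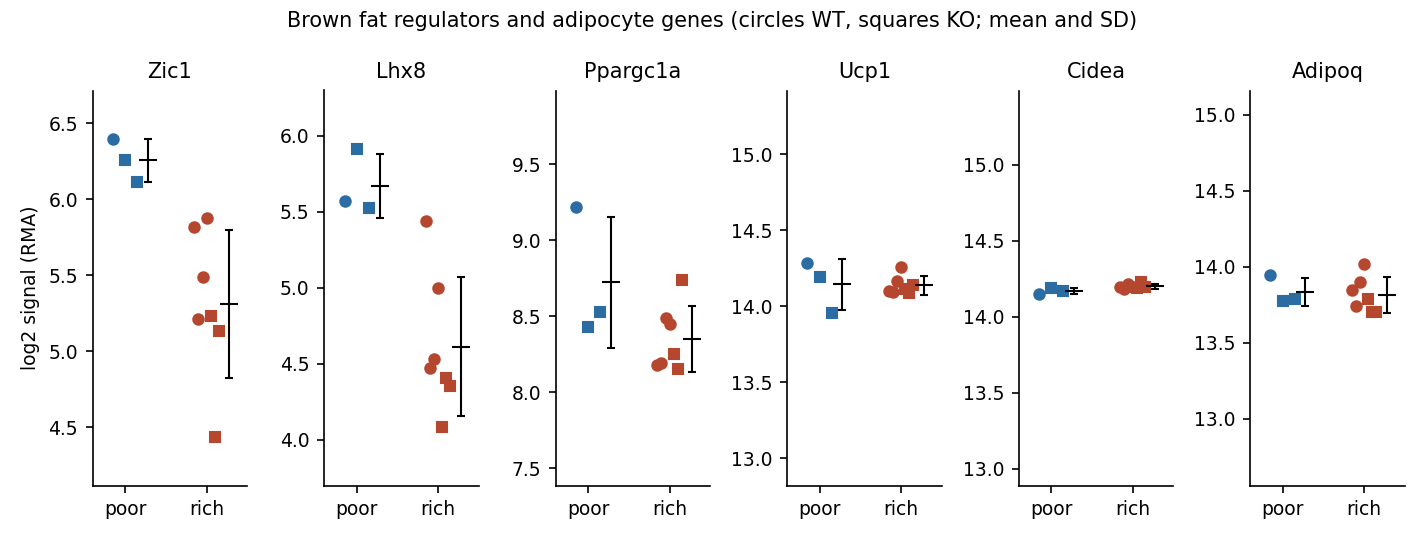
The log2 signal (y axis) of Zic1, Lhx8, Ppargc1a, Ucp1, Cidea and Adipoq in muscle-poor and muscle-rich arrays, where each point is 1 array, circles are WT, squares are KO, and the bars give the mean and SD of 3 and 7 arrays. Every panel spans the same log2 range, Zic1 and Lhx8 separate the groups, and the other genes overlap.

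A pair of genes was highest in WT 4 and WT 5, and they are named after their values were seen. Dio2, which activates thyroid hormone in brown fat, read 11.20 in WT 4 and 11.32 in WT 5, against 8.65 to 9.95 in the other 8 arrays. Mfsd2a, a transporter of lysophospholipids, read 10.21 in WT 4 and 10.50 in WT 5, against 7.43 in KO 5 and 4.72 to 5.62 in the others. WT 4 is muscle-rich and WT 5 muscle-poor, so neither gene followed the division.

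General adipocyte genes also overlapped, with 0 called of 13 and a median difference of -0.03. Adipoq, adiponectin, read 13.70 to 14.02 in muscle-rich and 13.77 to 13.94 in muscle-poor arrays. White adipocyte genes held 0 called of 12, with a median of 0.09. Fatty acid oxidation held 0 called of 18 and a median of -0.04, lipogenesis 0 of 16 and 0.01, and glycolysis 0 of 14 and 0.04.

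Respiratory genes had medians slightly below 0, apart from a muscle isoform. The mean over 17 TCA cycle genes was 12.985 to 13.025 in muscle-rich and 13.028 to 13.039 in muscle-poor arrays. Over 24 complex I subunits it was 12.734 to 12.806 and 12.811 to 12.844. Every muscle-poor mean thus lay narrowly above every muscle-rich mean in both lists. Lower members numbered 14 of the 17 and 20 of the 24, beside 10529 of all 18192 genes. In 2 complex I subunits the muscle-rich range lay below the other, against 1.78% of all genes. In both lists 0 members were called, and the medians were -0.03 and -0.05 beside -0.02 for all genes. Cox6a2, the heart and muscle isoform of a complex IV subunit, ran from 8.35 through 9.56 to 10.39 and read 7.10 in WT 5, 6.83 in KO 1 and 7.01 in KO 3, a difference of 2.42 ± 0.37. Cox6a1, the general isoform, differed by 0.02 ± 0.06. Cox7a1 and Cox8b, which muscle and brown fat both use, differed by -0.09 ± 0.05 and -0.11 ± 0.06.

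Markers of other tissues that could lie beside muscle were measured as well. Of 13 smooth muscle genes, Mylk4 alone was called, 12 were higher, and the median difference was 0.47. In 4 of the 13 the muscle-rich range lay above the other, against 1.85% of all genes. The list mean was 6.87 to 7.51 in muscle-rich and 6.41 to 6.65 in muscle-poor arrays. Des, Synm and Mylk4 on that list are expressed by striated muscle too. Among its defining genes, Acta2 overlapped at 8.63 to 10.28 and 8.73 to 9.09, and Myh11 at 6.60 to 7.99 and 6.54 to 7.19. The part of smooth muscle in the differences was not tested.

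Of 15 fibroblast and matrix genes, 0 were called, 13 were higher, and the median difference was 0.35. Their mean was 8.28 to 8.62 in muscle-rich and 7.99 to 8.37 in muscle-poor arrays, so the ranges overlapped, and the part of connective tissue was not tested. Tendon genes held 1 called of 13, Cilp, a cartilage matrix protein, at 0.69 ± 0.12, and a median of 0.06. Nerve, endothelial, macrophage and lymphocyte lists held 0 called of 15, 15, 15 and 13, with medians of -0.03, 0.04, -0.02 and -0.02. The 3 red blood cell genes measured had a median of 0.11 and 0 called, though Alas2 differed by 0.45 ± 0.11 without overlap.

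RNA integrity signals overlapped between the groups, for Actb through WT 4 only, and so did all but 1 of the stress transcripts measured. Of 19 immediate early genes 0 were called, and Fos ran from 6.43 to 11.53 in muscle-rich and from 4.49 to 8.80 in muscle-poor arrays. Of 15 heat shock genes 0 were called, with a median of -0.12, while Hspb7 and Hspb6, small heat shock proteins of striated muscle, differed by 1.67 ± 0.42 and 1.47 ± 0.34, and Hspb6 was the member without overlap. The 3′ minus 5′ log2 signal of Actb, which grows as RNA breaks down, was 0.33 to 0.80 in muscle-rich and 0.71 to 0.78 in muscle-poor arrays. WT 4 gave the 0.80, and the other muscle-rich arrays, at 0.326 to 0.635, all lay below the muscle-poor arrays. The part of RNA integrity in the differences was not tested. For Pcx it was 2.86 to 3.44 and 2.77 to 3.40.

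The genotype comparison was not used to divide the arrays and can be tested. With the muscle division in the model, limma called 0 of 18192 genes other than Acta1 (0.0%) between KO and WT. At an unadjusted p below 0.05 there were 1196 genes, and the smallest adjusted p was 0.739. Myh4 differed between KO and WT by -0.91 ± 0.61 and Ckm by -0.64 ± 0.47, with limma adjusted p-values of 0.775 and 0.787. Both genes followed the division, which is itself in the model. Their genotype values therefore do not tell whether muscle signal differed between KO and WT. Whether the muscle difference itself depended on genotype cannot be told from 1 muscle-poor WT array.

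Sirt3, the targeted gene, did not separate the genotypes as the labels would have it. It read 10.10, 10.28, 10.19, 10.07 and 10.03 in WT 1 to WT 5, and 10.39, 10.29, 10.40, 10.22 and 10.31 in the arrays labelled KO 1 to KO 5. The lowest KO array, at 10.22, was above 4 of the 5 WT arrays, and the labels do not tell whether the probe set lies in the removed part. Between muscle-rich and muscle-poor arrays Sirt3 differed by -0.02 ± 0.07.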

How the data were processed

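Total RNA from brown adipose tissue of 10 mice was labelled as biotinylated cRNA and hybridised to Affymetrix arrays, 1 array per mouse. The deposited values are log2 signals made by the authors with RMA, per the submitters' processing notes. The version and settings of RMA were not given in the sources used here. RMA equalises the arrays' distributions, so array medians lay between 5.58 and 5.61, and differences are relative to the other transcripts. It gives no detection call, and the number of arrays limits the precision.

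Of 45101 probe sets, 64 controls were set aside. The platform annotation tied 34945 of the rest to 1 gene, 932 to several genes and 9160 to none. The probe set with the highest mean was kept per gene, which left 18193 genes. Acta1 set the groups, and the other 18192 genes were described. Model fits used limma 3.58.1 (R 4.3.3; lmFit, then eBayes) with genotype and muscle group as terms, two-sided, with Benjamini-Hochberg adjustment, and were checked on simulated data. Errors are standard errors of that fit. Groups of genotype came from the sample titles. The arrays were treated as unpaired. Same-numbered arrays correlated between -0.395 and 0.236 in their deviations from genotype means, which does not settle whether the numbers pair the mice. Promoters came from the RefSeq table of GRCm38.p6, in which Tnni2 and Tnnt3 had no entry. Figures were drawn with matplotlib 3.10.9.

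The genes named are Acta1, Myh4, Ckm, members of the muscle lists, the 15 genes per direction with the largest difference among called genes outside them, up to 5 members with the smallest p of each other list, Sirt3 and Ucp1. Others are marked in the text or are defining markers of a cell type. The members and the gene lists were chosen with earlier results of these data known. Alternatives covered normalization, probe set choice, the variance model, a replicate block, single arrays left out, a continuous muscle measure and each genotype alone.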

Additional observations from a re-analysis of the deposited data

Results flagged for a closer look

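Among the 7 muscle-rich arrays, 28 of 312 named genes had 1 array whose gap to the next exceeded Dixon's critical value at 95%. Chance gives about 1 in 20 such genes, and the genes are not independent of each other. The outlying array was WT 4 in 14 genes, WT 2 in 5, and WT 3, KO 4 and KO 5 in 3 each.

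WT 2 was high in the slow-fibre genes Myh7 (10.08), Myl3 (9.06), Tnnc1 (10.15) and Tnni1 (9.73), and in the matrix gene Cilp (5.42). WT 4, the muscle-rich array with the lowest Acta1, was low in the muscle genes Myh2 (7.80), Csrp3 (6.55), Cryab (7.68), Fhl1 (11.45), Myom3 (5.45) and Aldoa (13.49), and in Cd24a (7.69) and Hspb8 (9.40). It was low in the lipogenic genes Scd2 (9.89) and Me1 (11.71). It was high in the calcium pump Atp2a2 (11.39), the endothelial Vwf (6.80) and the ribosomal Rps14 (12.94) and Rpl19 (12.54).

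WT 3 was high in Actc1 (7.46) and in the macrophage gene Adgre1 (6.84), and low in Itga7 (7.01). KO 4 was high in Tnnt2 (4.11) and low in Acads (11.35) and Ndufb5 (12.93). KO 5 was high in Ryr2 (6.60) and Ctss (8.85) and low in Slc2a4 (11.56). The cause of these single-array values was not tested.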

How the results depend on the processing

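Of the 87 called genes, 2 changed sign in a setting tried: without probe sets that can read several transcripts, Igdcc4 differed by -0.20 and Srpk3 by -0.059, each read by another probe set. The count of genes called higher, 83, and lower, 4, stayed within 1.5 times of these values with genes above the median signal (63 and 3), a variance trend (86 and 5), the mean of all probe sets (76 and 5), no shared probe sets (70 and 4), no genotype term (108 and 3) and KO arrays alone (68 and 4). Like counts did not always hold the same lower genes. KO arrays alone shared 0 of the 4 lower genes of the main fit, and the fit without a genotype term shared 1. Genes above the median signal shared 1, as dimmer genes were not fitted there. The variance trend shared 4, the mean of all probe sets 3, and leaving out shared probe sets 4. Further quantile normalization gave 91 and 7, and centring on array medians gave 98 and 13. Robust eBayes gave 45 and 0, with 927 lower at an unadjusted p below 0.05, and a continuous measure of muscle signal gave 154 and 11. With replicate number as a block, limma called 0 and 0, with 718 and 551 at an unadjusted p below 0.05. That fit spends 4 more degrees of freedom, and the sample titles do not say whether the numbers pair the arrays. Leaving out 1 array at a time gave 34 to 192 genes higher and 0 to 18 lower. The higher count moved by over 1.5 times without WT 1 (54), WT 4 (192), WT 5 (40), KO 1 (34), KO 2 (50), KO 3 (42) and KO 4 (48). Chosen after seeing the data, WT arrays alone, with 1 muscle-poor array, gave 0 and 0, with 618 and 533 at an unadjusted p below 0.05, and leaving out WT 4, WT 5 and KO 5 gave 177 and 4. The genotype count was 0 in every setting tried, with 695 to 1688 genes at an unadjusted p below 0.05. The causes were not tested.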
